A study of Mus musculus with 6 samples.

Results

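MHC class I molecules display peptides from inside the cell at its surface, and the genes described here are the 10 that encode their classical heavy chains (H2-K1 and H2-D1), the light chain (B2m), the peptide transporter (Tap1 and Tap2), tapasin (Tapbp), the immunoproteasome subunits (Psmb8, Psmb9 and Psmb10) and the class I transactivator Nlrc5. They were chosen by gene symbol, and the deposited table lists all 10 among its 27198 genes. RNA was sequenced from hematopoietic stem cells (HSCs) of wild-type male C57BL/6 mice, aged 8 to 10 weeks and not irradiated, that were given solvent (Ctrl) or ferulic acid, a plant phenolic antioxidant (FA). In the long-term FA group (l-FA), FA was injected into the peritoneum at 50 mg/kg daily over 30 days. Cells were sorted from bone marrow as c-Kit+ and Sca-1+ and negative for lineage markers, CD34 and Flk2, and there were 3 libraries per group.

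Proteasomes cut cytosolic proteins into peptides, and interferons replace the constitutive catalytic subunits by the immunoproteasome subunits. The transporter encoded by Tap1 and Tap2 moves the peptides into the endoplasmic reticulum, where tapasin and the chaperones calreticulin, calnexin and ERp57 help to load them on a heavy chain paired with beta-2 microglobulin. NLRC5 activates promoters of class I heavy chain genes, among others, together with the RFX and NF-Y factors. Interferon acts on class I genes through STAT and IRF factors. Class I is carried by nearly all nucleated cells, blood stem cells included.

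Each library held 19287735 to 20380610 counts. The sources used here do not give the number of mice behind a library, so p-values measure the spread between these libraries, which may be technical. Over all genes tested, the median chi-square between 2 libraries of a group was 0.888 to 1.07 and between groups 8.19 to 8.83, where counting error alone gives 0.455. Over 89 immunoglobulin V genes, which differ between B cell clones, the same-group medians were 0.387 to 0.670 and those between groups 13.8 to 17.1. Separate mice in a group and a single pool of RNA in each group cannot be told apart here. For the 10 class I genes the same-group medians were 2.56 to 10.8, above counting error, and those between groups 104 to 284. A chi-square grows with the count, and these genes had mean counts of 1957 to 63287. Their values therefore cannot be compared in size with those over all genes. The chi-squares were scaled by total counts, without TMM factors. The sort was checked against its markers. Kit had 1067 and 1157 CPM (counts scaled to the library size with edgeR's TMM factors) in Ctrl and l-FA, whereas Cd34 had 1343 and 1579 CPM and Flt3, which encodes Flk2, had 759 and 1183 CPM, although the cells were sorted as negative for both proteins. Ly6a, which encodes Sca-1, had 53.2, 32.7 and 49.2 CPM in Ctrl and 75.1, 78.5 and 76.8 CPM in l-FA, a 1.70-fold rise (edgeR adjusted p = 0.00887).

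The upstream sequences of the class I genes that rose in l-FA HSCs are shown first. Elements that IRF factors bind are known to carry the response to interferon, and NLRC5 acts together with NF-Y. Sites of the RFX factors were not searched, and the kappaB element belongs to neither of these kinds. RefSeq promoter windows on GRCm38.p6 matched 8 of the 10 genes, all but Tap2 and Nlrc5, and only the bases before the annotated start were searched and printed, 5′ to 3′ on the strand of the gene. Capitals mark matches on either strand to a kappaB element (GGGGATTCCCC, as it stands in the H2-K1 window), an IRF core (GAANNGAAA), an interferon-stimulated response element (ISRE, which is GAAA on both sides of any 2 bases) and the NF-Y box (CCAAT). The H2-K1 sequence is chr17:34000348-34000597 on the minus strand, that of H2-D1 chr17:35262844-35263093, that of B2m chr2:122147437-122147686 and that of Tapbp chr17:33919228-33919477, each on the plus strand. The Tap1 sequence, chr17:34187331-34187555 on the plus strand, is the 225 bases between its RefSeq start and that of Psmb9, which is transcribed the other way. On the coordinates of the deposited table, Tap1 and Psmb9 overlap by 212 bases instead.
H2-K1: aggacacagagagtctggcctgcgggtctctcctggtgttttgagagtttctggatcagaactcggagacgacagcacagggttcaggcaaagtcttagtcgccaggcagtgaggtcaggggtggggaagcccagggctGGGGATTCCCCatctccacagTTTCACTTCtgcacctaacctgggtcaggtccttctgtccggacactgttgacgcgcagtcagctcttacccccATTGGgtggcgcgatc
H2-D1: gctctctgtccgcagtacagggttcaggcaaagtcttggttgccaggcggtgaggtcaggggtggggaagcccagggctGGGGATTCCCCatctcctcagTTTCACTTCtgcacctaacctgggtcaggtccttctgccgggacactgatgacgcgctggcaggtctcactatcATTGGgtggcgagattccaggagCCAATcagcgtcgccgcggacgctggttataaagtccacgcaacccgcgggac
B2m: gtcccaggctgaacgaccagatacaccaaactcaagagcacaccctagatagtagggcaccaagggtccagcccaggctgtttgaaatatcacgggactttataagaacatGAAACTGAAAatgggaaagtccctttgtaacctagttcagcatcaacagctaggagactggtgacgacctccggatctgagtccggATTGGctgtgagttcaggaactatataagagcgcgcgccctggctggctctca
Tapbp: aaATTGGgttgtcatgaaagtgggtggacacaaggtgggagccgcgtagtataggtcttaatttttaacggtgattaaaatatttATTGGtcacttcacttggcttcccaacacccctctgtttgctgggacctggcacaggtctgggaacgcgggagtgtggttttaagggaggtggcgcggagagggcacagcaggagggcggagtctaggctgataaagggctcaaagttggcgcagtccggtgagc
Tap1: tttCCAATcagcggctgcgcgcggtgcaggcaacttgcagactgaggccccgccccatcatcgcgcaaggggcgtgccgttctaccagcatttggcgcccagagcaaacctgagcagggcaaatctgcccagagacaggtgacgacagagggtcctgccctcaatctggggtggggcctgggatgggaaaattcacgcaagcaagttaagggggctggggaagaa

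H2-K1 and H2-D1 share the same arrangement, a kappaB element followed by an IRF core, and 166 of the 190 bases that align between their printed sequences (87.4%) are identical with no gap. The kappaB letters were read from the H2-K1 window, so its match is given, and the alike H2-D1 window is not an independent one. They stood before 9 of 27025 genes (0.0333%), H2-Q6 among them. The IRF core stood before 2 of the 8 class I genes and 7.30% of all genes, and the full ISRE, before B2m only, in 1 of 8 against 3.46%. A CCAAT box was found before 6 of the 8 genes and 37.5% of all genes, and the CRE core TGACG, one of the letters that CREB and ATF factors bind, before 5 of the 8 and 19.8%. These counts are not of independent sites. Tap1 and Psmb9 share their upstream bases on opposite strands, so the same CCAAT box and the same CRE core were counted for both. The IRF core, a CCAAT box and the CRE core of H2-K1 and H2-D1 also lie at matching places in their alike windows. Neither Psmb8 nor Psmb10 had a match to the kappaB, IRF, ISRE or CCAAT letters, while a gamma-activated site (GAS, TTCNNNGAA) was found before Psmb8 and 8.13% of all genes. These matches describe letters in the window and were not tested as binding sites.

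In HSCs of l-FA-treated mice the heavy chain, light chain, Tap1, tapasin and Nlrc5 transcripts were higher than in control HSCs, and the immunoproteasome transcripts were not called. Of the 10 genes, which were all tested, 6 were higher (H2-K1, H2-D1, B2m, Tap1, Tapbp and Nlrc5) and 0 lower at an adjusted p under 0.05 in edgeR's quasi-likelihood test, where 25.5% of all 16520 genes tested were called higher, 25.0% lower and 50.5% in either direction. Higher genes made up 50.4% of all calls, and 61.6% with scaling by total counts alone, which was tried after seeing the data and called 8 of the 10 genes higher. By an unadjusted p under 0.05, 6 were higher and 1 lower, and DESeq2 called 7 higher, Tap2 added, and 0 lower. None of the 10 passed a 2-fold limit with edgeR, at an adjusted or an unadjusted p, or with DESeq2, past which edgeR placed 6.68% of all genes as higher and 5.10% as lower, 11.8% in all. Their median change was 0.15 on the log2 scale, against 0.003 for all genes tested. The 10 genes took 0.683% to 0.692% of a Ctrl library's counts and 0.793% to 0.820% of an l-FA library's. In sorted bulk cells, more RNA per cell and more cells that carry it cannot be told apart.

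**Figure D1:**
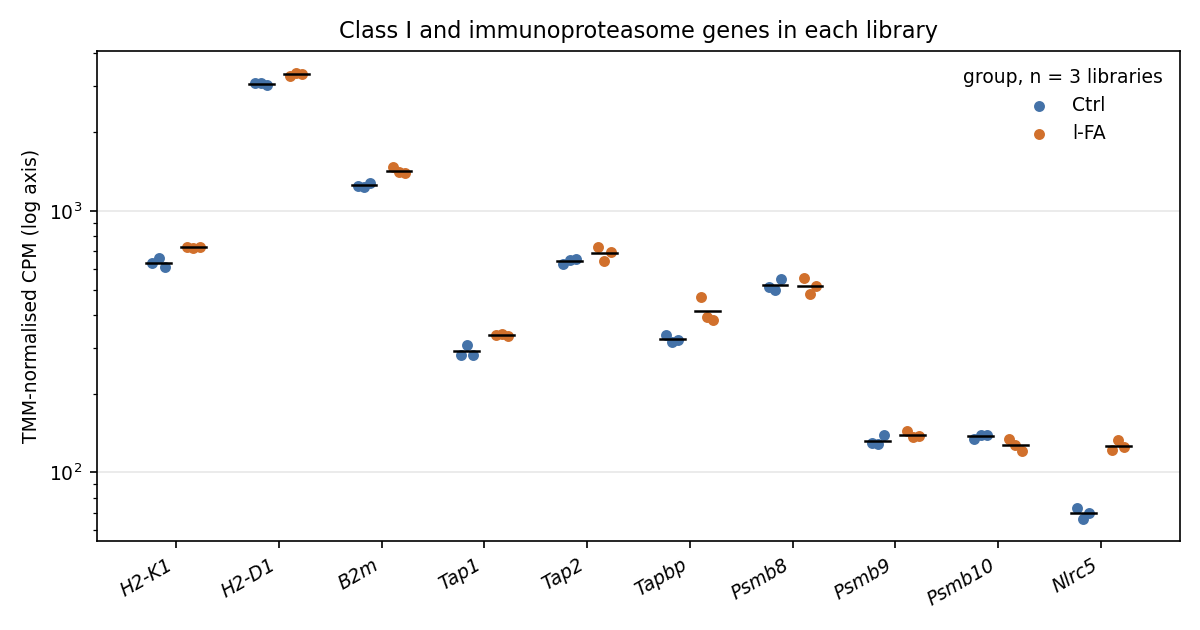
TMM-normalised CPM (log axis) of the 10 genes in each of 3 Ctrl and 3 l-FA libraries, with a bar at the group mean. The groups are apart for H2-K1, H2-D1, B2m, Tap1, Tapbp and Nlrc5, with l-FA above, and for Psmb10, with l-FA below, and they overlap for Tap2, Psmb8 and Psmb9.

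H2-K1 (ENSMUSG00000061232, chromosome 17, 34214991 to 34219321), which encodes the K heavy chain, had 629, 659.9 and 611 CPM in the Ctrl libraries and 724, 719 and 730.01 CPM in the l-FA libraries. All 3 l-FA libraries stood above all 3 Ctrl libraries and lay closer together. On the log2 scale H2-K1 rose by 0.19 with a standard error (SE) of 0.0300, a 1.14-fold rise (edgeR adjusted p = 0.00203). H2-D1 (ENSMUSG00000073411, chromosome 17, 35481706 to 35486475), which encodes the D heavy chain, had 3069, 3081 and 3031 CPM in Ctrl and 3281, 3365 and 3334 CPM in l-FA. The groups did not overlap here either, and the rise was smaller, 0.12 on the log2 scale (SE 0.0147, edgeR adjusted p = 0.000769). Heavy chain genes resemble each other, and 0.957% of the 100-base stretches of the H2-K1 transcripts and 3.59% of those of H2-D1 also occur in transcripts of another gene, mostly H2-Q10 and H2-Q1. Among 50-base stretches the shares were 9.63% and 12.8%, so part of the reads of these genes may have been assigned to a relative.

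B2m (ENSMUSG00000060802, chromosome 2, 121978167 to 121983564), whose product pairs with every class I heavy chain, had 1248, 1232 and 1279 CPM in Ctrl and 1471, 1406 and 1394 CPM in l-FA. The l-FA libraries were all higher, with the first of them highest, and the log2 fold change was 0.18 (SE 0.0262, edgeR adjusted p = 0.00142). None of its 100-base stretches is shared with another gene. Per kilobase of exon, the ratio of B2m to the sum of H2-K1 and H2-D1 was 1.03, 1.01 and 1.08 in Ctrl and 1.13, 1.05 and 1.05 in l-FA. These groups overlapped, and the log2 difference of 0.05 had an exact two-sided permutation p of 0.4, where 0.1 is the smallest that 3 libraries against 3 allow. The size of this ratio rests on the exon length used.

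Tap1 and Tap2 encode the subunits of the peptide transporter. Tap1 (ENSMUSG00000037321, chromosome 17, 34406527 to 34416199) had 281, 306 and 282 CPM in Ctrl and 336, 337 and 331 CPM in l-FA, so the groups did not overlap. It rose by 0.21 on the log2 scale (SE 0.0374, edgeR adjusted p = 0.00393). Tap2 (ENSMUSG00000024339, chromosome 17, 34422501 to 34435295) had 628, 648 and 654 CPM in Ctrl and 729, 646 and 695 CPM in l-FA. The second l-FA library lay within the Ctrl range, and the log2 fold change of 0.10 (95% interval -0.01 to 0.21) had an adjusted p of 0.107 from edgeR. Without that library it was 0.16 (adjusted p = 0.0105 from edgeR), and the adjusted p ran from 0.0105 to 1 over the alternatives tried. The ratio of Tap1 to Tap2 per kilobase did not separate the groups (log2 difference 0.11, exact two-sided permutation p = 0.2).

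Tapbp (ENSMUSG00000024308, chromosome 17, 34134873 to 34148266) encodes tapasin, which bridges the transporter and the empty heavy chain. It had 335, 316 and 322 CPM in Ctrl and 469.6, 392 and 383 CPM in l-FA, with all l-FA libraries higher and the first well above the others. The log2 fold change was 0.36 (SE 0.0782, edgeR adjusted p = 0.00899), and 0.27 without the first l-FA library, the lowest of the 6 fits that each left out a library, all of which called it. Tapbp overlaps Zbtb22 (mean count 526.5) and Gm19412 (mean count 118.5) in the deposited table, and 14.8% of its 100-base stretches are shared, nearly all with Gm19412. Whether the counting used strand is not given in the sources used here, and this bears on 8 of the 10 genes, since H2-K1 and H2-D1 alone overlap no other listed gene.

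None of the immunoproteasome genes was called. Psmb8 (ENSMUSG00000024338, chromosome 17, 34416695 to 34420428), whose subunit has chymotrypsin-like activity, had 512, 498 and 549 CPM in Ctrl and 552, 479 and 514 CPM in l-FA. The groups overlapped fully, and the log2 fold change was -0.01 (95% interval -0.16 to 0.13, adjusted p = 0.870 from edgeR), a sign that turned under 5 of the 14 alternatives. Psmb9 (ENSMUSG00000096727, chromosome 17, 34400961 to 34406738), next to Tap1, had 129.5, 128 and 139 CPM in Ctrl and 144, 137 and 138 CPM in l-FA. The log2 difference was 0.08 (95% interval -0.02 to 0.17, adjusted p = 0.172 from edgeR), and the third Ctrl library lay above 2 of the l-FA libraries. Psmb10 (ENSMUSG00000031897, chromosome 8, 106662367 to 106665076), whose subunit replaces the trypsin-like one, had 134.08, 139.35 and 139.09 CPM in Ctrl and 133.82, 127.69 and 121.07 CPM in l-FA. Every l-FA library was just below every Ctrl library, and the log2 fold change of -0.11 (95% interval -0.21 to -0.01) had an adjusted p of 0.0765 from edgeR. Groups that do not overlap are common here, with l-FA below in 29.9%, above in 30.4% and either in 60.3% of all genes tested, against 1, 6 and 7 of the 10 genes.

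The constitutive counterparts of these subunits were lower in l-FA HSCs, and the ratio of each immunoproteasome transcript to its counterpart was higher in every l-FA library. Psmb5, the counterpart of Psmb8, had 122, 118 and 120.3 CPM in Ctrl and 96.2, 95.6 and 91.4 CPM in l-FA (log2 fold change -0.35, SE 0.0340, edgeR adjusted p = 0.000313). Psmb6, the counterpart of Psmb9, had a log2 fold change of -0.11 (adjusted p = 0.0134 from edgeR) and Psmb7, the counterpart of Psmb10, one of -0.35 (adjusted p = 0.00139 from edgeR), with no overlap between the groups for either. The ratio of Psmb8 to Psmb5, each per kilobase of exon, was 1.11, 1.12 and 1.21 in Ctrl and 1.53, 1.33 and 1.49 in l-FA. The ratio of Psmb9 to Psmb6 was 0.230, 0.232 and 0.238 in Ctrl and 0.272, 0.260 and 0.263 in l-FA. The ratio of Psmb10 to Psmb7 was 4.32, 4.70 and 4.44 in Ctrl and 5.45, 5.62 and 4.87 in l-FA. All 3 ratios were higher in every l-FA library, by 0.33, 0.18 and 0.24 on the log2 scale, each with an exact two-sided permutation p of 0.1, the smallest that 3 libraries against 3 allow. A ratio within a library does not depend on scaling between libraries, and here the denominators were called lower while the numerators were not called. The size of each ratio rests on the exon length used, and it is not a measure of subunit proportions. By the longest annotated transcript, Ctrl had 272.5 CPM per kilobase of Psmb8 and 133.7 of Psmb5, against 153.7 and 133.7 by merged exon.

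**Figure D2:**
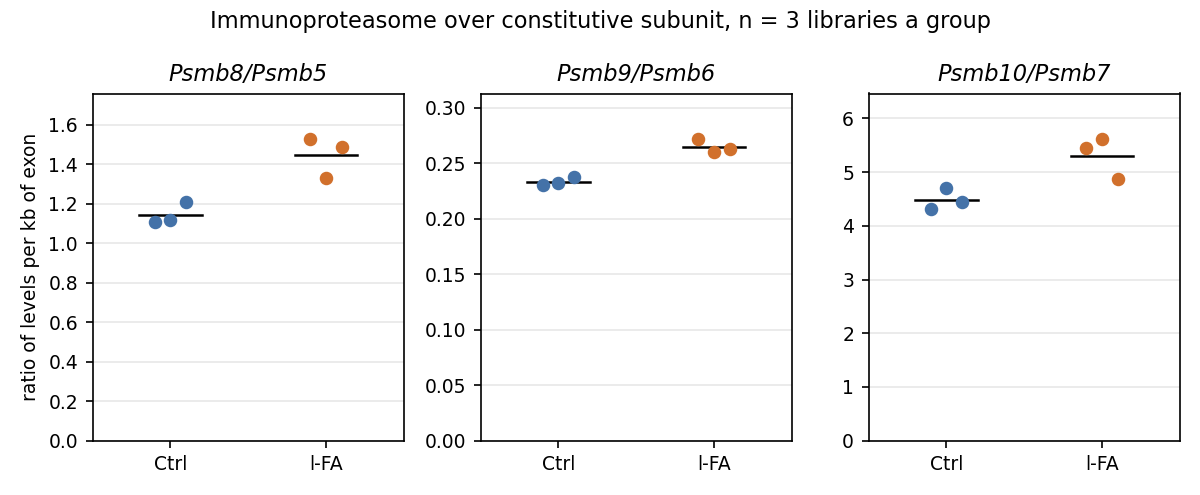
Ratio of each immunoproteasome subunit transcript to its constitutive counterpart, both per kilobase of exon, in 3 Ctrl and 3 l-FA libraries, with a bar at the geometric mean. Every l-FA library lies above every Ctrl library in all 3 panels, as for Psmb8 over Psmb5 with 1.33 to 1.53 against 1.11 to 1.21.

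Nlrc5 (ENSMUSG00000074151, chromosome 8, 95160984 to 95253900), which drives transcription of class I heavy chain genes, showed the largest change of the 10. It had 73.1, 66.6 and 69.9 CPM in Ctrl and 121, 133 and 125.02 CPM in l-FA, so the lowest l-FA library stood far above the highest Ctrl library. The log2 fold change was 0.86 (SE 0.0510, edgeR adjusted p = 5.25e-05), a 1.81-fold rise. It was called in all 14 alternatives, between 0.82 and 0.93, and was the only one of the 10 called when the test was set against a 1.2-fold change (adjusted p = 0.000162 from edgeR's glmTreat), a test that called 14.7% of all genes higher. The other 5 genes called rose by 1.09-fold to 1.28-fold. None of the Nlrc5 100-base stretches is shared with another gene.

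**Figure D3:**
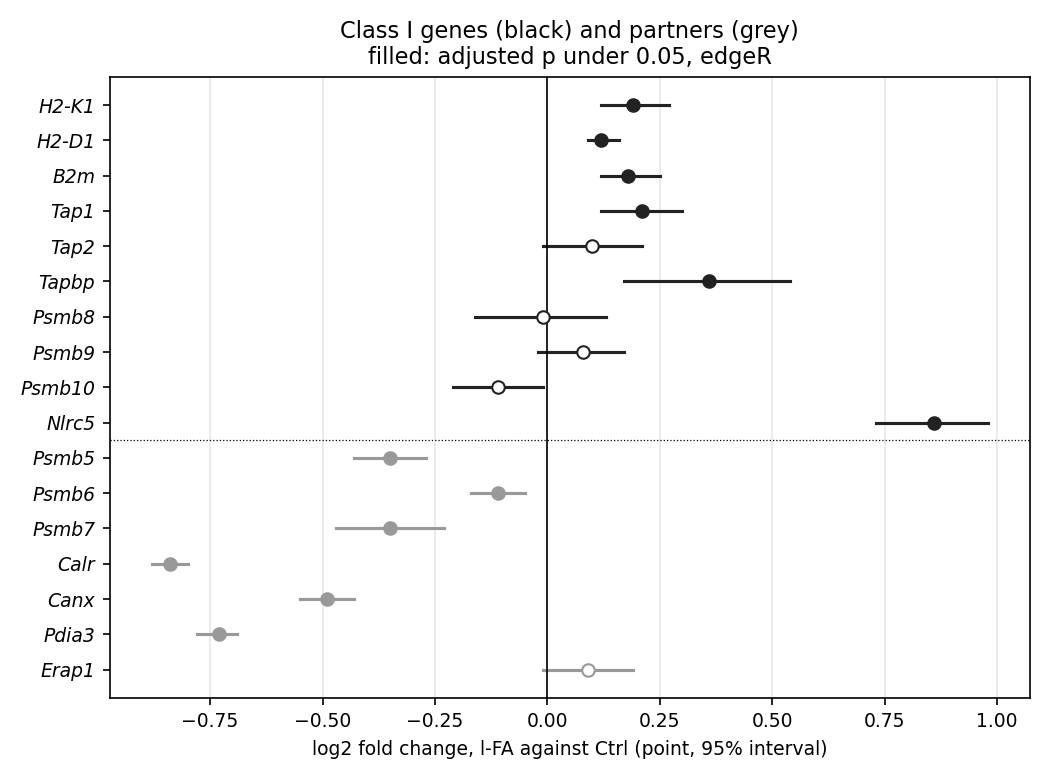
Log2 fold change of l-FA against Ctrl with its 95% interval for the 10 class I and immunoproteasome genes (black) and for constitutive proteasome subunits and loading partners (grey), filled where the adjusted p from edgeR was under 0.05. Nlrc5 stands apart at 0.86, H2-K1, H2-D1, B2m, Tap1 and Tapbp lie between 0.12 and 0.36, and Calr, Pdia3 and Canx lie between -0.84 and -0.49.

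By level, the 10 genes spanned a wide range. Per kilobase of merged exon, Ctrl HSCs had 1457 ± 28.1 CPM of B2m, 1175 to 1195 of H2-D1 (3 libraries), 216 ± 8.44 of H2-K1, 170.1 ± 3.63 of Tap2, 154 ± 7.77 of Psmb8, 89.4 ± 2.66 of Tapbp, 80.6 ± 1.74 of Psmb10, 52.9 ± 2.62 of Tap1, 36.1 ± 1.56 of Psmb9 and 8.22 ± 0.382 of Nlrc5 (SD, n = 3). No 2 neighbours in this order overlapped in the Ctrl libraries. The order rests on exon length. By the longest annotated transcript, B2m and H2-D1 were level at 1457 and 1456 CPM per kilobase, and Psmb8, at 272.5, stood above Tap2, at 186.9. In l-FA HSCs the order by merged exon was the same, from 1655 ± 48.1 CPM per kilobase for B2m down to 14.9 ± 0.693 for Nlrc5.

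Position is shared by most of these genes. On the coordinates of the deposited table, for which the submitters' processing notes name GRCm39, 7 lie on chromosome 17, 1 on chromosome 2 and 2 on chromosome 8. Psmb9, Tap1, Psmb8 and Tap2 follow one another within 34335 bases, from 34400961 to 34435295 of chromosome 17. Of these 4 neighbours edgeR called Tap1 alone, DESeq2 called Tap2 as well, and edgeR with scaling by total counts alone called Tap1, Tap2 and Psmb9. On these coordinates, unlike the RefSeq starts used for the promoter sequences, the Psmb9 and Tap1 genes overlap by 212 bases on opposite strands. Of the 100-base stretches of the Tap1 transcripts, 1.93% are shared with Psmb9.

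The other class I heavy chain and class I-like genes were mixed. Of 22 listed by symbol, 17 were in the table and 14 were tested, of which 6 were higher and 2 lower (edgeR, median log2 fold change 0.13), where 25.5% of all genes were higher and 25.0% lower. The largest rises were in Fcgrt, the neonatal Fc receptor (0.69, SE 0.161), in Cd1d1, which presents lipids to NKT cells (0.59, SE 0.0392), in H2-M3, which presents formylated peptides (0.45, SE 0.0383), and in H2-T23, which encodes Qa-1 (0.37, SE 0.0331). H2-T23 had 180, 187 and 180.2 CPM in Ctrl and 228, 238 and 242 CPM in l-FA. The kappaB-bearing H2-Q6, named for that match, rose by 0.21 on the log2 scale (adjusted p = 0.0150 from edgeR), while H2-Q7, its close relative, fell by 0.11 (adjusted p = 0.00790 from edgeR). Beyond H2-K1, H2-D1 and H2-Q6, the genes with the kappaB letters were not followed, and a link between the element and these changes was not tested. How far reads of close relatives such as H2-Q6 and H2-Q7 could be assigned to one another was not tested.

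Most peptide trimming and loading partners were lower in l-FA HSCs. Of 14 genes 10 were lower and 0 higher (edgeR), where 25.0% of all genes tested were called lower and 25.5% higher. Their median log2 fold change was -0.40. By an adjusted p from edgeR and a 2-fold limit together, 1 was lower, against 5.10% of all genes tested. It was Hspa5, which encodes the chaperone BiP (-1.05, SE 0.0411). Calreticulin, Calr, had 1306, 1291 and 1275 CPM in Ctrl and 713, 719 and 729 CPM in l-FA (log2 fold change -0.84, SE 0.0176, edgeR adjusted p = 1.56e-06). Pdia3, which encodes ERp57, fell by 0.73 (adjusted p = 2.86e-06 from edgeR), Canx, which encodes calnexin, by 0.49 (adjusted p = 2.84e-05 from edgeR), and the peptidase gene Thop1 by 0.83 (adjusted p = 1.47e-05 from edgeR). Erap1, the aminopeptidase that trims class I peptides in the endoplasmic reticulum, had a log2 fold change of 0.09 (95% interval -0.01 to 0.19, adjusted p = 0.124 from edgeR). The rest of the list, Lnpep (0.13), Tapbpl (0.06) and Npepps (-0.07), was not called either (edgeR), so the fall did not cover every partner. The ratio of Tapbp to Calr per kilobase was 0.204, 0.194 and 0.200 in Ctrl and 0.523, 0.433 and 0.417 in l-FA, a 2.28-fold higher ratio in l-FA with no overlap between the groups (exact two-sided permutation p = 0.1, the smallest possible).

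Of 9 other proteasome genes, 8 were in the table and tested, 4 of them lower and 0 higher (edgeR), with a median of -0.14. Among all genes tested 25.0% were called lower and 25.5% higher. The largest fall was in Psme3, the nuclear PA28 gamma activator (-0.50, SE 0.0226, edgeR adjusted p = 2.03e-05). The interferon-responsive PA28 subunits Psme1 (0.03, 95% interval -0.04 to 0.09) and Psme2 (-0.14, 95% interval -0.27 to -0.02) had adjusted p of 0.430 and 0.0594 from edgeR.

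**Figure D4:**
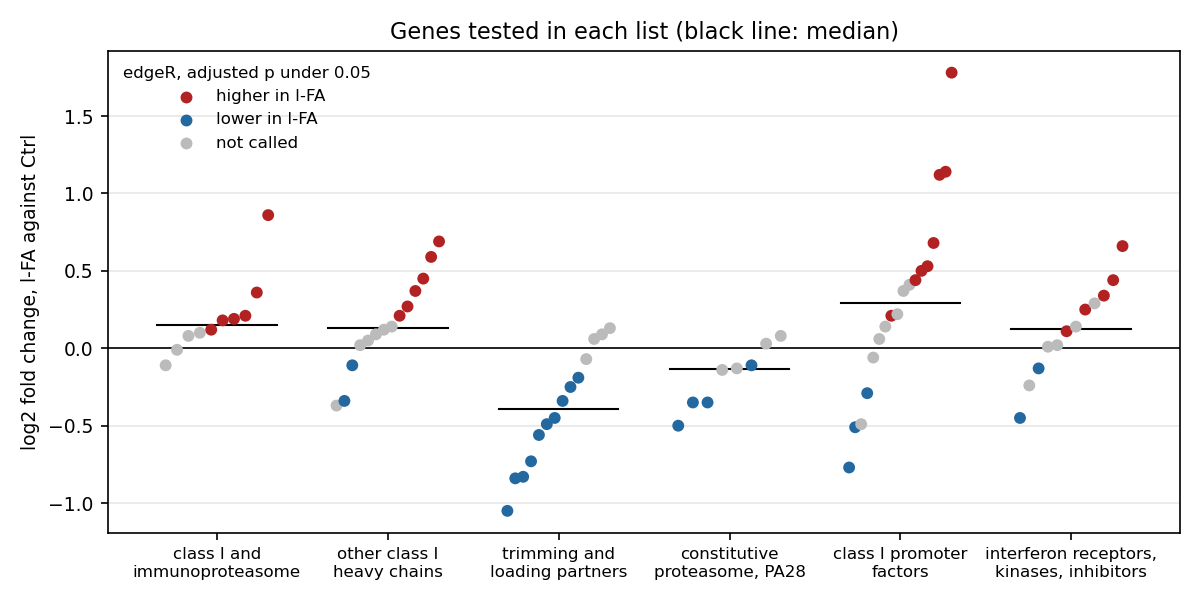
Log2 fold change of l-FA against Ctrl for each gene tested in 6 lists, coloured by the call of edgeR at an adjusted p under 0.05, with a line at the median. The medians are 0.15 for the 10 class I and immunoproteasome genes, 0.13 for other heavy chains, -0.40 for trimming and loading partners, -0.14 for constitutive proteasome and PA28 genes, 0.30 for class I promoter factors and 0.12 for interferon receptors, kinases and inhibitors.

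Among 18 genes for factors of class I promoters, all tested, 8 were higher and 3 lower (edgeR, median 0.30). Of all genes tested 25.5% were called higher and 25.0% lower, and 6.68% were higher past 2-fold. Past 2-fold were Ciita, the class II relative of Nlrc5 (1.78, SE 0.126, edgeR adjusted p = 9.44e-05), Irf7 (1.14, SE 0.0658) and Stat2 (1.12, SE 0.0604). Ciita had 34 to 46 counts in Ctrl libraries and 144 to 152 in l-FA libraries. Genes for the RFX and NF-Y partners of NLRC5 on DNA were mixed. Rfx5 fell by 0.51 (SE 0.0692, edgeR adjusted p = 0.00119) and Nfya, which encodes an NF-Y subunit, by 0.77 (SE 0.142, edgeR adjusted p = 0.00429). Of the other 4, named after their values were seen, Nfyc fell by 0.29 and Rfxank rose by 0.44 (edgeR adjusted p = 0.00205 and 0.00936), while Rfxap (-0.06) and Nfyb (0.06) were not called. Irf1, a classical activator of class I genes, had 921, 932 and 2308 counts in Ctrl and 1640, 1724 and 1706 in l-FA, so that 1 Ctrl library stood above all l-FA libraries and the log2 fold change of 0.22 had an SE of 0.337 (adjusted p = 0.622 from edgeR).

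Of 12 genes for interferon receptors, their kinases and inhibitors, 5 were higher and 2 lower (edgeR, median 0.12), where 50.5% of all genes tested were called. Ifnar1, a chain of the type I interferon receptor, rose by 0.44 (SE 0.0560, edgeR adjusted p = 0.000883), and Ifngr1, the ligand-binding chain of the interferon gamma receptor, fell by 0.45 (SE 0.0269, edgeR adjusted p = 5.37e-05). The inhibitors Socs3 and Socs1 were higher by 0.66 and 0.34 (adjusted p = 0.000329 and 0.0342 from edgeR). Of 12 interferon and related cytokine genes, only Il18 and Tnf are in the table. Tnf, with 45 to 49 counts in Ctrl and 108 to 136 in l-FA libraries, had a log2 fold change of 1.27 (SE 0.138, edgeR adjusted p = 0.000476), and Il18 one of 0.59 (adjusted p = 0.000436 from edgeR). Of 12 genes for ligands of NK and checkpoint receptors 6 were in the table and 4 tested, and the 2 called, Cd274 (PD-L1, 0.40) and Pdcd1lg2 (PD-L2, 2.29, from 14 to 23 counts in Ctrl and 87 to 107 in l-FA), were both higher.

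Markers of stem cells and of other cells moved with the groups as well. Of 13 genes whose presence or, for Cd34, Flt3 and Cd48, absence marks HSCs, 9 were higher and 2 lower (edgeR). A rise or a fall therefore does not read the same way for all 13. Among all genes tested 25.5% were called higher and 25.0% lower. The 13 genes summed to 3854 to 3935 CPM in Ctrl libraries and 4678 to 4801 CPM in l-FA libraries. The largest rises in that sum were those of Flt3 and Cd34, whose proteins the cells were sorted to lack. Slamf1, which encodes the HSC marker CD150, rose 3.72-fold (edgeR adjusted p = 0.000338). The 2 lower were Hlf and Cd48, with log2 fold changes of -0.31 and -0.15 (edgeR adjusted p = 0.00195 and 0.00176). Tek and Hoxb5 were not called. All 10 granulocyte and granulocyte progenitor genes were lower and past 2-fold (edgeR), where 5.10% of all genes tested were. Their summed level was 23148 to 24069 CPM in Ctrl libraries and 5717 to 6030 CPM in l-FA libraries. Most of it was Mpo, with means of 18544 CPM in Ctrl and 4938.5 CPM in l-FA. Of 9 monocyte and dendritic genes 8 were tested, with 4 lower and 2 higher (edgeR), and their sum was 209 to 291 CPM in Ctrl and 154 to 172 CPM in l-FA. The summed level of 7 B cell genes was 55.6 to 55.9 and 63.2 to 66.0 CPM, nearly all of it Cd79b, with Pax5 at no more than 1 count in any library. The T and NK cell sum, mostly Nkg7, was 549 to 570.3 CPM in Ctrl and 309.5 to 319.7 CPM in l-FA, with Cd3e at no more than 10 counts in a library. Megakaryocyte genes summed to 209.7 to 219.6 CPM in Ctrl and 297 to 304 CPM in l-FA (3 of 6 higher, 0 lower, edgeR). Erythroid and stromal genes summed to no more than 41.1 and 22.4 CPM in any library. The part of these shifts in the class I values was not tested.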

How the data were processed

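Per the labels, RNA was amplified with the SMART-Seq HT kit and sequenced for 3 Ctrl and 3 l-FA libraries of sorted HSCs, grouped and numbered by their titles; dose, duration and age are from the paper's methods. Per-gene counts, as whole numbers, and FPKM values were deposited by the authors; their processing notes name HISAT2, SAMtools 1.3.1, StringTie, edgeR and GRCm39, without roles, and the counting tool and annotation are not given in the sources used here. The deposited FPKM divide by a length that exceeds the gene's listed span for 5 of the 10 genes (H2-K1: 10612 against 4331 bases), so levels between genes were taken per kilobase of merged GENCODE vM21 exons.

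The test was edgeR 4.0.16 (R 4.3.3, TMM, filterByExpr, glmQLFit, glmQLFTest), with Benjamini-Hochberg adjustment over 16520 of 27198 genes, each library holding 19287735 to 20380610 counts. Standard errors were derived from the F statistic. The code was tested on simulated counts. Ratios within a library were compared with exact permutation tests. Alternatives were DESeq2 1.42.0, RLE, upper-quartile and total-count scaling, other low-count filters, glmTreat, the replicate block and each library left out. Amplified reads without molecular identifiers are not independent molecules, so chi-square values set against counting error cover only that error. Shared stretches are exact matches in GENCODE vM21 transcripts on either strand; read length is not given in the sources used here. Promoter sequences are from RefSeq on GRCm38.p6 and were not converted to the table's build.

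The genes and lists were chosen with earlier results of these data known. The text names all 10 genes and, from each of the 7 lists of related genes (marker lists are given by counts and sums), genes past an adjusted p of 0.05 and 2-fold, up to 4 of the largest called changes with a mean count of at least 10, and Psmb5, Psmb6, Psmb7, Psme1, Psme2, Irf1, Rfx5, Ciita, Calr, Canx, Pdia3 and Erap1; a further gene named by this rule is not reported here. The ratios of B2m, Tap1 and Tapbp, H2-Q6, H2-Q7, the other RFX and NF-Y genes and the marker genes named were added after values were seen. So were Lnpep, Tapbpl and Npepps.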

Additional observations from a re-analysis of the deposited data

How the results depend on the processing

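The number of the 10 genes called higher was 6 to 8 under every alternative run except the test against a 1.2-fold change, where it was 1 (Nlrc5, with 14.7% of all genes called higher), with 4 of the other 5 rises under 1.2-fold. Scaling by total counts alone, chosen after seeing the data, moved the median of all genes to 0.082, called 8 of the 10 genes higher (Tap2 and Psmb9 added) and raised the share of higher genes among all called from 50.4% to 61.6%. Called lower was 0, and 1 without l-FA replicate 1, where Psmb10 had an adjusted p of 0.0424 from edgeR. Over the 6 fits that each left out a library, 6 to 7 genes were higher, 0 to 1 lower and 0 past 2-fold. The log2 fold change of Psmb8 changed sign to 0.011 with upper-quartile scaling, to 0.065 with total counts alone, and ran from -0.053 to 0.049 with a library left out (0.022 without Ctrl replicate 3, 0.049 and 0.001 without l-FA replicates 2 and 3); the cause was not tested. The 3 subunit ratios kept their direction with each library left out, at 0.296 to 0.396, 0.165 to 0.198 and 0.200 to 0.303 on the log2 scale. With the replicate number as a block, 6 genes were higher and 0 lower, as without it. Same-numbered libraries did not deviate together (correlations of -0.125 to -0.00301 over 11428 genes), so the numbers were not treated as a pairing. Nlrc5, the least abundant gene, still had at least 1242 counts in a library, so the spread between libraries rather than depth limits these values.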
